A study of Mus musculus with 18 samples.

Results

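Lymphocyte transcripts and the B cell chemokine gene Cxcl13 were followed library by library in RNA of EpCAM+ mouse lung cells. The 8 genes were taken by name from the 15544 in the deposited values, matched by Ensembl identifier, and all were measured: Cd3e, Cd3g, Trbc2, Lck, Gzma, Ccl5, Cd79a and Cxcl13. They were chosen with earlier results of these data known, so setting them against all genes is no test of the set. EpCAM is an epithelial surface protein, and cells carrying it had been captured on magnetic beads from mice aged 10 to 12 weeks. The 18 libraries came from 4 genotypes. Double-Het animals carried 1 mutant allele at each locus, Falcor+/-;Foxa2+/- (n = 4, replicates 15 to 18). Falcor-/- animals (n = 5, replicates 6 to 10) were homozygous mutants of Falcor, a long noncoding RNA gene beside Foxa2. Foxa2+/- animals (n = 4, replicates 11 to 14) were heterozygous for Foxa2, whose product is a forkhead factor active in airway and alveolar epithelium. Wild-type animals (n = 5, replicates 1 to 5) made up the rest. The labels give no batch, sex or pooling of animals, so the p-values below measure the spread between these libraries.

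A T cell recognises antigen through a receptor whose alpha and beta chains bind the target and whose CD3 chains carry the signal inward, where the kinase Lck starts the phosphorylation cascade. B cells use a membrane immunoglobulin with the signalling chains CD79A and CD79B in the same way. Cytotoxic T cells and natural killer (NK) cells kill with granzymes and release the chemokine CCL5, while CXCL13 guides B cells that carry its receptor CXCR5 into lymphoid follicles and, in the lung, into lymphoid clusters around the airways.

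The level of a gene is its deposited log2 value, which was scaled by the authors so that every library had nearly the same distribution, with library medians of 11.03. A difference is one genotype's mean log2 level minus another's. A gene was called changed below an adjusted p of 0.05 in limma (Benjamini-Hochberg over the 15249 genes with a mean level of at least 6). All 8 genes passed that filter. Gzma lay just inside it with a mean of 6.05, and the CD3 chain gene Cd3d and the receptor chain gene Trac, each with a mean of 5.96, lay just outside. Over the libraries other than Falcor-/- Gzma averaged below 6, so it passed through its Falcor-/- levels. The values carry no gene length, so levels are not compared between genes. At low levels the values sit on a few steps shared by many genes. Cd3e had between 7 and 36 distinct lower values beneath it in its library, Cd3g 4 to 59, Gzma 4 to 67 and Cxcl13 2 to 241, against 240 to 816 for Cd79a. Precision is therefore lowest for the T cell genes and for Cxcl13 where it was low, and the depth in reads is unknown. In bulk RNA of this kind, fewer cells of a type and less RNA per cell cannot be told apart.

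Foxa2 and the Falcor transcript were measured as the check of the labels. Foxa2 was 12.36 ± 0.19 (SD, n = 4) in Double-Het, 12.74 ± 0.23 (n = 5) in Falcor-/-, 12.39 ± 0.05 (n = 4) in Foxa2+/- and 12.97 ± 0.08 (n = 5) in wild type. The Falcor transcript, 9030622O22Rik, was 11.66 ± 0.15 in Double-Het, 6.20 ± 0.68 in Falcor-/-, 11.70 ± 0.21 in Foxa2+/- and 10.18 ± 0.48 in wild type. It fell in Falcor-/- (adjusted p = 6.35e-07 in limma) and rose in Foxa2+/- (adjusted p = 0.00325). It also rose in Double-Het (adjusted p = 0.00242), although those animals are labelled Falcor+/-. Double-Het and Foxa2+/- did not differ by limma in the Falcor transcript (-0.04, adjusted p = 0.954) or in Foxa2 (-0.03, adjusted p = 0.901). The check therefore cannot tell these 2 labels apart. The mean level of 25 epithelial markers ran from 14.44 to 14.66 across all libraries.

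The lymphocyte genes and Cxcl13 followed different patterns across the genotypes. Cxcl13 was near the bottom of the scale in all 4 Double-Het libraries and in 3 of 5 Falcor-/- libraries, and was high in every Foxa2+/- and wild-type library. The T cell and cytotoxic genes were lowest on average in Foxa2+/- and highest in Falcor-/-. By limma 5 of these 6 genes were higher in Falcor-/- than in Foxa2+/-, as were 8.56% of all tested genes. Of the 5, only Cd3g and Trbc2 kept the call whichever library was left out. Cd79a, the B cell gene, was not called in any of the 6 comparisons. Over all 4 genotypes the limma F test called 4 of the 8 genes, Cxcl13 (adjusted p = 0.00227), Trbc2 (0.011), Cd3g (0.0181) and Lck (0.0412), where it called 23.2% of all tested genes. Gzma (0.0651), Ccl5 (0.0702), Cd3e (0.237) and Cd79a (0.666) did not pass. Without 1 library at a time the F test called 2 to 6 of the 8, with the fewest without Foxa2+/- replicate 12 and the most without Falcor-/- replicate 7.

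**Figure D1:**
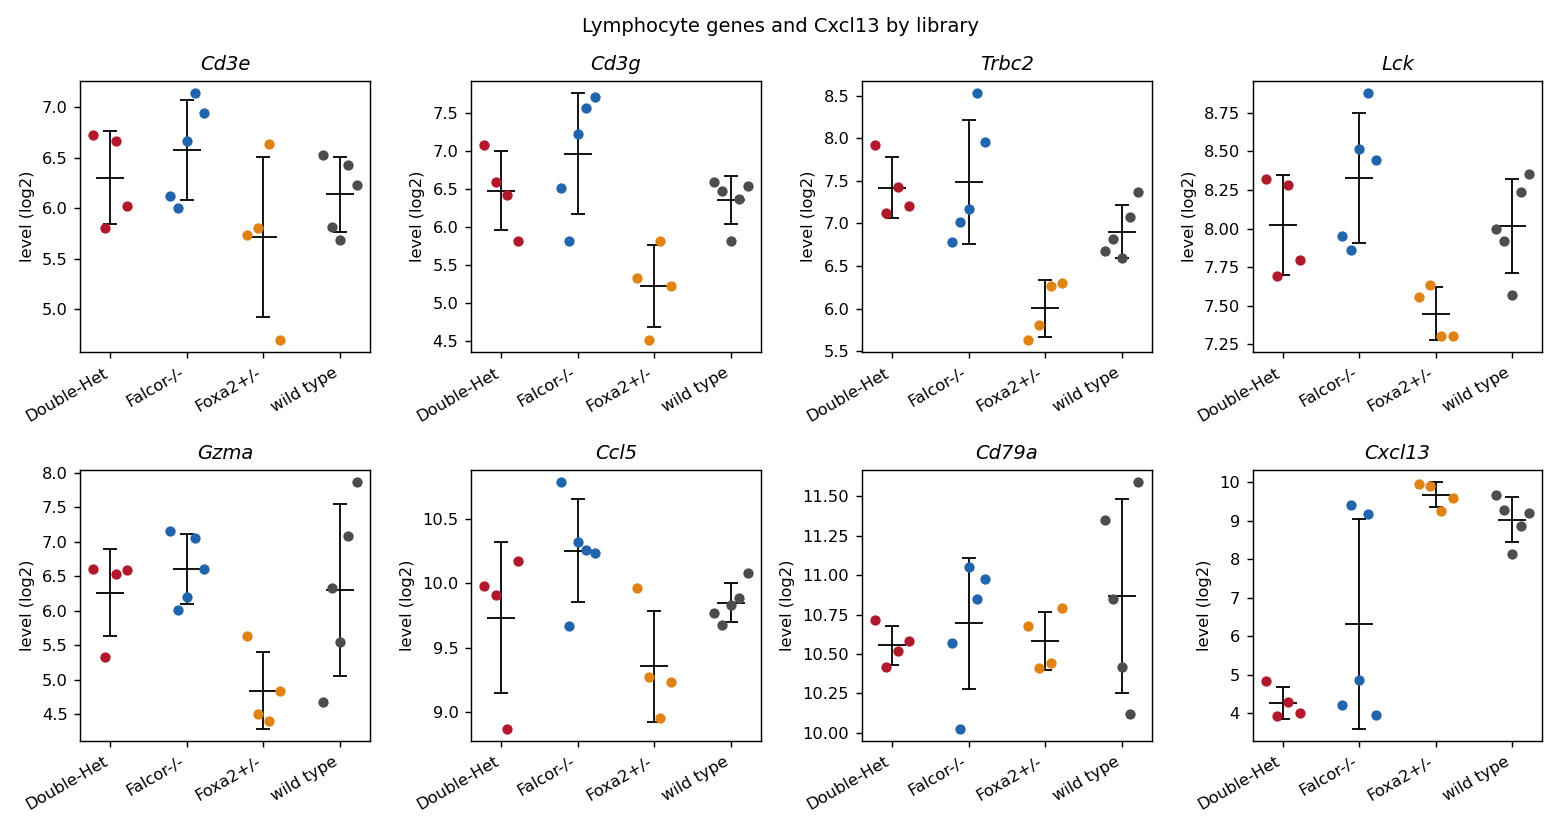
Deposited log2 level of each of the 8 genes (y axis, a separate scale for each panel) in each library, grouped by genotype on the x axis; points are libraries, long bars the genotype mean and whiskers 1 SD. Cxcl13 lies between 3.93 and 4.83 in all 4 Double-Het libraries, and Trbc2 lies between 5.63 and 6.30 in all 4 Foxa2+/- libraries.

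Cxcl13 (ENSMUSG00000023078) lies on chromosome 5. Its promoter is shown because Foxa2, a forkhead factor, differed in dosage between the genotypes. The window of 250 bases before the gene start, chr5:95956689-95956938 on the plus strand of GRCm38.p6 (RefSeq), reads 5′ to 3′ as follows, with the TATA box letters TATAAA in capitals.
Cxcl13: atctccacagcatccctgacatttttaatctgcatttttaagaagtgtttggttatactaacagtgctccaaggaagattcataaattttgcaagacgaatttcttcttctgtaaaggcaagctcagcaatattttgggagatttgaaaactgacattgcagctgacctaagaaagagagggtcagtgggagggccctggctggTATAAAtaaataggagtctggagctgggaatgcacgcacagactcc
The TATA box lay 46 to 41 bases before the start. On either strand TATAAA stands in 12.4% of the 32851 windows of the same length in the RefSeq table. Neither of the forkhead forms searched, TGTTTAC (3.17% of windows) and TATTTAC (2.73%), was found in the Cxcl13 window or in the windows of the other 5 matched genes, and these letters say nothing of binding elsewhere. Only these exact letters were searched, so other forkhead forms in the window were not looked for. The authors aligned reads to mm9, so these coordinates are those of the RefSeq table only.

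Cxcl13 stood at 4.83, 3.93, 4.29 and 3.99 in Double-Het replicates 15 to 18. In Falcor-/- replicates 6 to 10 it stood at 4.21, 9.41, 4.87, 9.19 and 3.94. The Foxa2+/- libraries, replicates 11 to 14, held 9.96, 9.92, 9.25 and 9.61, and wild-type replicates 1 to 5 held 9.66, 9.29, 8.13, 8.88 and 9.21. Each library thus stood either at 4.87 or lower or at 8.13 or higher, with none between. The Double-Het range overlapped neither that of wild type (so for 15.7% of all tested genes) nor that of Foxa2+/- (11.9%), while Falcor-/- had libraries in both ranges. In the 7 low libraries only 2 to 5 distinct values lay beneath Cxcl13, so how low it was there is not resolved.

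Double-Het cells averaged 4.26 ± 0.41 (SD, n = 4) for Cxcl13 and wild-type cells 9.03 ± 0.58 (n = 5), so Cxcl13 fell by 4.77 on the log2 scale, to 3.65% of the wild-type level (95% interval of the difference -6.73 to -2.82, adjusted p = 0.00239 in limma). The 2-sided exact permutation test gave p = 0.0159, the smallest that 4 against 5 libraries allow. The call held in each of the 9 fits that left out 1 library, where the difference ran from -5.0 to -4.62. Among the 8 genes it was the only call in this comparison, which called 14.8% of all tested genes and 7.57% of them as lower. Because low genes sit on coarse steps, the percent is no exact ratio of transcripts.

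Falcor-/- cells averaged 6.32 ± 2.74 (SD, n = 5) for Cxcl13, a mean over 2 separate ranges that describes none of its libraries. The difference from wild type was -2.71 (SE 0.87, 95% interval -4.55 to -0.86) and missed the threshold (adjusted p = 0.056, exact permutation p = 0.119). It passed without Falcor-/- replicate 7 (-3.48, adjusted p = 0.00939) and without replicate 9 (-3.43, adjusted p = 0.0275), the 2 libraries with high Cxcl13. Over the 10 fits that left out 1 library the adjusted p ran from 0.00939 to 0.127. Centring each library on the epithelial markers gave -2.81 (adjusted p = 0.0457), and weighting libraries by quality gave -3.45 (adjusted p = 0.01).

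Foxa2+/- cells averaged 9.68 ± 0.33 (SD, n = 4) for Cxcl13, 0.65 above wild type, with a wide limma interval of -1.31 to 2.60 (adjusted p = 0.793). That interval rests on 1 spread pooled over the 4 genotypes (SD 1.52), which includes the split Falcor-/- libraries. It does not measure the scatter of these 2 genotypes alone, for which the exact permutation test gave p = 0.0952. All 4 Foxa2+/- libraries lay above the wild-type mean and 2 lay above every wild-type library. Between mutants, the difference of Double-Het from Foxa2+/- in Cxcl13 was -5.42 (SE 0.98, adjusted p = 0.00778), and the call held in all 8 fits that left out 1 library. Set against Falcor-/-, the Double-Het difference was -2.07 and did not pass (interval -4.02 to -0.11, adjusted p = 0.21). The comparison of Falcor-/- with Foxa2+/- gave -3.36 (SE 0.93, adjusted p = 0.0251), and that call was lost without Falcor-/- replicate 6 or 10 or Foxa2+/- replicate 12, 13 or 14 (adjusted p 0.0544 to 0.0614, over all 9 such fits 0.00348 to 0.0614). A fit of those 2 genotypes alone also missed it (adjusted p = 0.0857).

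The libraries with low Cxcl13 were also the libraries with low C1qa, C1qb and C1qc, which encode the chains of complement C1q and are made mainly by macrophages. Of 13730 named genes these 3 had the highest correlation with Cxcl13 over the 18 libraries, with Pearson r of 0.977 for C1qc, 0.977 for C1qa and 0.975 for C1qb. After the genotype means were subtracted the same values were 0.949, 0.940 and 0.952. These describe libraries in 2 separate level ranges and carry no test.

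C1qa was 10.49, 9.97, 9.58 and 9.60 in Double-Het replicates 15 to 18. In Falcor-/- it was 8.92, 9.78 and 9.83 in replicates 6, 8 and 10, and 13.15 and 13.73 in replicates 7 and 9. Foxa2+/- libraries ran from 13.17 to 14.10 and wild-type libraries from 13.08 to 13.97. The split of the Falcor-/- libraries was therefore the same for C1qa as for Cxcl13.

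**Figure D2:**
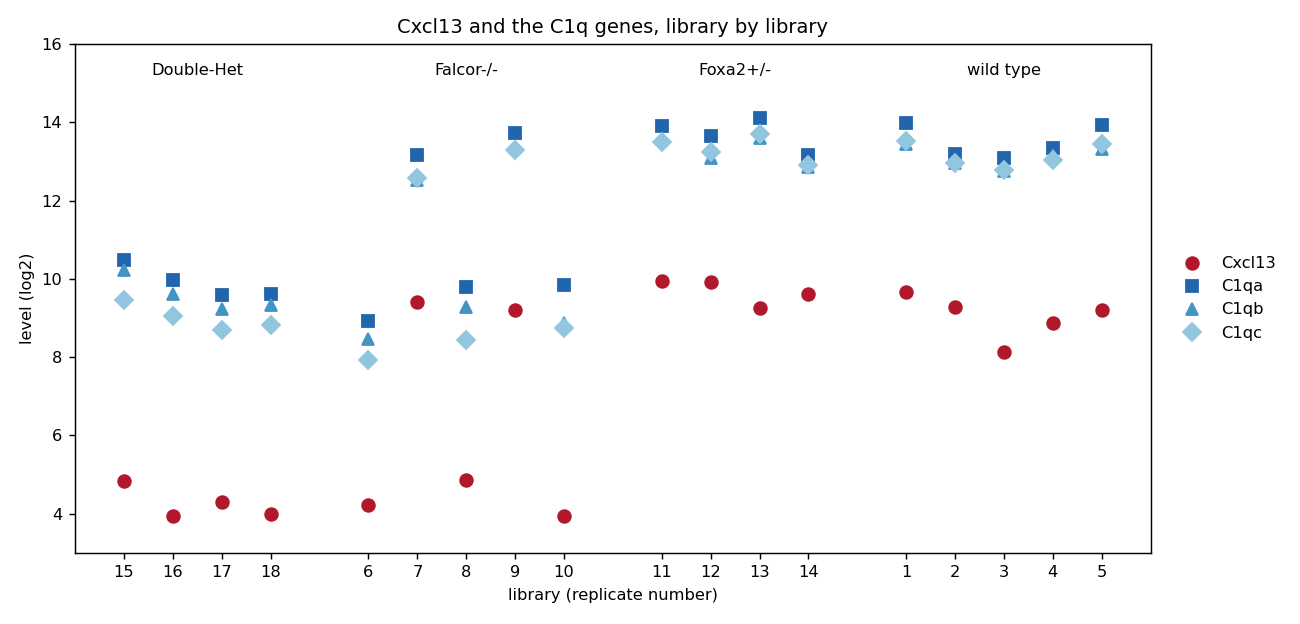
Deposited log2 levels (y axis) of Cxcl13 and of the complement genes C1qa, C1qb and C1qc in each of the 18 libraries, ordered by genotype and replicate number on the x axis. All 4 genes are low in the 4 Double-Het libraries and in Falcor-/- replicates 6, 8 and 10, and high in the other libraries.

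Some other macrophage markers moved with Cxcl13, and others did not. Of 24 macrophage markers tested, 14 fell and none rose in Double-Het, 13 fell and none rose in Falcor-/-, and none was called in Foxa2+/- by limma, where 2 had an unadjusted p under 0.05 (19.2% of all tested genes). The counts that fell in Double-Het and in Falcor-/- include C1qa, C1qb and C1qc, named above for following Cxcl13. They are therefore not independent of that choice. Of all tested genes, 7.21% rose and 7.57% fell in Double-Het, 5.23% rose and 4.24% fell in Falcor-/-, and 1.96% rose and 4.15% fell in Foxa2+/-. Those with the smallest p in Double-Het were the transcription factor gene Maf (-2.97), the coagulation factor gene F13a1 (-6.06) and the growth factor receptor gene Csf1r (-1.40). In Falcor-/- they were Maf (-1.84), F13a1 (-3.97) and the scavenger receptor gene Cd163 (-2.01). The other markers included some that lay on the higher side, 5 of the 24 in Double-Het and 8 in Falcor-/-, none of them called by limma. In Falcor-/- these included the alveolar macrophage genes Marco (0.66, adjusted p = 0.623), Ear2 (0.41, 0.641), Siglecf (0.32, 0.76) and Chil3 (0.31, 0.797), and in Double-Het Siglecf (0.72, 0.52) and Ear2 (0.27, 0.798), chosen here after their values were seen.

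The mean level of the macrophage list was 10.38 to 11.29 in Double-Het, 10.09 to 12.35 in Falcor-/-, 12.22 to 12.61 in Foxa2+/- and 12.09 to 12.68 in wild type. In Falcor-/- replicates 7 and 9 it was 12.01 and 12.35, and in replicates 6, 8 and 10 it was 11.10, 10.09 and 10.96. The log2 of the list's summed level moved far less, 18.97 to 19.26 in Double-Het, 19.02 to 19.34 in Falcor-/-, 19.32 to 19.46 in Foxa2+/- and 19.13 to 19.32 in wild type, so the summed level, which the most abundant markers set, did not show the split. No marker of the list was at the lowest deposited value, and the lowest in any library was F13a1 at 4.81 in Falcor-/-. The part of these cells in the Cxcl13 result was not tested.

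Cxcr5, which encodes the receptor of CXCL13 on B cells, did not show the split of its ligand. It averaged 8.82 ± 0.31 (SD, n = 4) in Double-Het, 8.85 ± 0.44 (n = 5) in Falcor-/-, 8.82 ± 0.18 (n = 4) in Foxa2+/- and 9.11 ± 0.54 (n = 5) in wild type. The largest of its differences from wild type, in Foxa2+/-, was -0.29 (SE 0.26, adjusted p = 0.621).

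Of 21 other lymphoid chemokine and lymphotoxin genes, 5 fell and 1 rose in Double-Het, 1 fell in Falcor-/- and 2 fell in Foxa2+/-. Of all tested genes 7.57% fell and 7.21% rose in Double-Het, 4.24% fell in Falcor-/- and 4.15% fell in Foxa2+/-, so the single call in Falcor-/- is near the share of all genes. Cxcl12, a stromal chemokine that holds lymphocytes and progenitors in their niches, fell by 2.50 in Double-Het (adjusted p = 0.000506) and by 2.33 in Foxa2+/- (adjusted p = 0.00163). Ccl2, which recruits monocytes, fell by 0.77 in Double-Het (adjusted p = 0.00592). The call in Falcor-/- was Ccr6, the receptor of CCL20, with -2.41 (adjusted p = 0.012), and the other in Foxa2+/- was the chemokine scavenger gene Ackr4, with -1.29 (adjusted p = 0.0412). These comparisons share their wild-type libraries. Stromal markers moved in the same comparisons: 16 of 19 mesenchymal markers fell in Double-Het, 5 in Falcor-/- and 10 in Foxa2+/-. Of 20 endothelial markers, 17 fell in Double-Het, 1 in Falcor-/- and 15 in Foxa2+/-. The single endothelial call in Falcor-/- is near the share of all genes, but all 20 lay on the lower side there (median -0.76). By limma 10 of these 20 had an unadjusted p under 0.05, where 33.5% of all tested genes had one. The part of the mesenchymal and endothelial cells in the chemokine results was not tested.

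Cd3e (ENSMUSG00000032093) and Cd3g (ENSMUSG00000002033) encode signalling chains of the receptor complex, Trbc2 (ENSMUSG00000076498) a constant region of its beta chain, and Lck (ENSMUSG00000000409) the kinase that phosphorylates the CD3 chains. Promoter windows were in the RefSeq table for 6 of the 8 genes. Those of Cd3e, Lck and Cd79a are shown because each holds ACAGGAAG and CAGGAAGT within 60 bases of the start. These letters are longer forms of an ETS site, a class of element bound by lymphoid ETS factors. The shorter ETS core was not searched. They are the 250 bases before the gene start on GRCm38.p6, all on the gene's own strand: chr9:45009612-45009861 (minus) for Cd3e, chr4:129573642-129573891 (minus) for the first of 2 Lck starts, and chr7:24897247-24897496 (plus) for Cd79a. Capitals mark the overlapping letters ACAGGAAG and CAGGAAGT, or their reverse complement in Cd3e.
Cd3e: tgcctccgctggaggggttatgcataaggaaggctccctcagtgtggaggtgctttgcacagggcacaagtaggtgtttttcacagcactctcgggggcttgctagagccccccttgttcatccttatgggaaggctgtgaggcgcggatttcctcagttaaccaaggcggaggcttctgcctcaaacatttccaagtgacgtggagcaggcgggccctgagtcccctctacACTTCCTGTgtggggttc
Lck: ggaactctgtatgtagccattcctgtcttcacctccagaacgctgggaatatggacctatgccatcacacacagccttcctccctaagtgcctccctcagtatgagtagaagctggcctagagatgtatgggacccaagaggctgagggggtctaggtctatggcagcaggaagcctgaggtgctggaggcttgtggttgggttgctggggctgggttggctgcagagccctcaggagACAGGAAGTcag
Cd79a: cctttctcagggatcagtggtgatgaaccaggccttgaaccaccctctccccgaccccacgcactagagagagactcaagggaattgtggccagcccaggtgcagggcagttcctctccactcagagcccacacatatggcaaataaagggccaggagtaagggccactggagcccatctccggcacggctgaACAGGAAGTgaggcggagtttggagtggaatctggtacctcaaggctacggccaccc
The matches began 18, 12 and 57 bases before the start of Cd3e, Lck and Cd79a. The window of the second Lck start, not shown, held CAGGAAGT at 115 to 108 bases before that start. ACAGGAAG stands on either strand in 2.9% of all windows and CAGGAAGT in 2.69%. Of the other letters searched, GGGNNTTCC (kappa B, 4.98% of windows) stood in the Cd3g window and the motif of the B cell factor EBF1 (0.779%) in none of the 7 windows of these genes. A match describes the letters only.

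Cd3e was 6.73, 5.81, 6.66 and 6.02 in Double-Het replicates 15 to 18 and 6.13, 6.01, 6.67, 7.14 and 6.94 in Falcor-/- replicates 6 to 10. It was 5.73, 5.81, 6.64 and 4.69 in Foxa2+/- replicates 11 to 14 and 6.53, 5.82, 5.69, 6.43 and 6.23 in wild-type replicates 1 to 5. The 4 genotypes overlapped, with the highest level in Falcor-/- replicate 9 and the lowest in Foxa2+/- replicate 14. None of the 6 comparisons called Cd3e, and the nearest was Falcor-/- against Foxa2+/- (0.86, 95% interval 0.11 to 1.61, adjusted p = 0.0951), which passed only without Falcor-/- replicate 7 (1.0, adjusted p = 0.0491, over the 9 such fits 0.0491 to 0.297).

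Cd3g was 7.07, 6.58, 6.42 and 5.81 in Double-Het and 6.50, 5.81, 7.22, 7.56 and 7.71 in Falcor-/-, in the same replicate order. It was 5.32, 4.51, 5.81 and 5.22 in Foxa2+/- and 6.59, 6.47, 5.81, 6.36 and 6.53 in wild type. Falcor-/- replicates 8, 9 and 10 were the 3 highest of the 18, and 3 of the 4 Foxa2+/- libraries were the 3 lowest. One library of each genotype sat on the same step at 5.81, so no pair of genotypes was wholly separate.

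Trbc2 was 7.92, 7.12, 7.43 and 7.20 in Double-Het and 6.78, 7.02, 7.17, 8.53 and 7.96 in Falcor-/-. It was 5.63, 5.81, 6.27 and 6.30 in Foxa2+/- and 6.67, 6.81, 6.60, 7.08 and 7.36 in wild type. Every Foxa2+/- library lay below every library of the other genotypes, and the remaining 3 genotypes overlapped. Separation from Foxa2+/- in either direction held for 11.4% of all tested genes in wild type, 12.3% in Falcor-/- and 11.9% in Double-Het. The beta chain constant regions of Trbc1 and Trbc2 are nearly identical, so how the authors' counting split reads between them is uncertain. Trbc1 averaged 6.52 ± 0.46 (SD, n = 4) in Double-Het, 6.60 ± 0.53 (n = 5) in Falcor-/-, 5.08 ± 0.35 (n = 4) in Foxa2+/- and 6.20 ± 0.44 (n = 5) in wild type.

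Lck was 8.32, 7.69, 8.28 and 7.79 in Double-Het and 7.95, 7.86, 8.51, 8.88 and 8.44 in Falcor-/-. It was 7.55, 7.64, 7.30 and 7.30 in Foxa2+/- and 8.0, 7.92, 7.57, 8.24 and 8.35 in wild type. The Foxa2+/- libraries lay below every Double-Het library (no overlap for 11.9% of all tested genes) and every Falcor-/- library (12.3%). They overlapped wild type through wild-type replicate 3 alone.

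The effector genes Gzma and Ccl5 are used here as markers of cytotoxic T and NK cells, and which cells gave their reads was not tested. Gzma (ENSMUSG00000023132), a granule protease, was 6.60, 5.32, 6.54 and 6.59 in Double-Het and 7.16, 6.01, 6.20, 7.06 and 6.60 in Falcor-/-. It was 5.63, 4.51, 4.41 and 4.83 in Foxa2+/- and 4.68, 6.33, 5.55, 7.08 and 7.86 in wild type. Wild type spanned the widest range of any genotype for this gene, an SD of 1.25, and held both the highest level of the 18 and one among the 3 lowest. Every Falcor-/- library lay above every Foxa2+/- library, and 12.3% of all tested genes did not overlap there.

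Ccl5, a chemokine of activated T and NK cells, was 9.98, 9.91, 8.87 and 10.18 in Double-Het and 10.78, 9.67, 10.32, 10.26 and 10.24 in Falcor-/-. It was 9.96, 9.27, 8.96 and 9.24 in Foxa2+/- and 9.77, 9.68, 9.84, 9.89 and 10.08 in wild type. The wild-type libraries were the closest together (SD 0.15, against 0.58 in Double-Het, 0.40 in Falcor-/- and 0.43 in Foxa2+/-). All genotypes overlapped, and the lowest library of all was Double-Het replicate 17.

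Falcor-/- against Foxa2+/- was the comparison in which most of these genes differed. Cd3g was higher in Falcor-/- by 1.75 (SE 0.37, adjusted p = 0.00882), Trbc2 by 1.49 (SE 0.32, adjusted p = 0.00823) and Lck by 0.88 (SE 0.22, adjusted p = 0.0164). Gzma was higher by 1.76 (SE 0.52, adjusted p = 0.031) and Ccl5 by 0.90 (SE 0.25, adjusted p = 0.0278). The Gzma call is not independent of the filter, which Gzma passed through its Falcor-/- levels. With the fall of Cxcl13 this made 6 of 8 genes, 5 of them higher and 1 lower, against 16.7% of all tested genes, 8.56% higher and 8.1% lower. The median difference of the 8 genes was 0.89, against 0.00017 over all tested genes. Because the 8 were chosen with earlier results of these data known, these shares and medians are description only. Gzma, Lck and Trbc2 did not overlap between these genotypes, which was so for 12.3% of all tested genes.

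Markers of other cell types moved in the same comparison, where 8.56% of all tested genes were higher and 8.1% lower. Of the 20 other T cell markers, 6 were higher in Falcor-/- than in Foxa2+/- and none was lower, with a median of 0.53. Those with the smallest p were Trbc1 (1.51, adjusted p = 0.00737), Lef1 (1.75, adjusted p = 0.00752) and Cd247 (1.43, adjusted p = 0.0119). Over the libraries other than Falcor-/- Trbc1 and Cd247 averaged below 6, so both passed the filter through their Falcor-/- levels. Their calls as higher there are not independent of the filter. Of 20 endothelial markers 14 were higher and none lower, with a median of 1.36, and of 19 mesenchymal markers 8 were higher and 2 lower. The 2 mesenchymal markers called lower are near the share of all genes. Of 24 macrophage markers 14 were lower and none was called higher, although 7 lay on the higher side, among them Marco by 1.46 (adjusted p = 0.282) and Chil3 by 0.96 (adjusted p = 0.413). The 14 include C1qa, C1qb and C1qc, named above for following Cxcl13. The part of these cell types in the T cell and cytotoxic differences was not tested.

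Not all of these calls were stable to the loss of 1 library. Cd3g and Trbc2 kept theirs in all 9 such fits (adjusted p at most 0.0299 and 0.0238). Lck lost its call without Foxa2+/- replicate 13 (adjusted p = 0.0588, lowest of the 9 fits 0.00569). Gzma and Ccl5 lost theirs without Falcor-/- replicate 6, 9 or 10 or Foxa2+/- replicate 12, 13 or 14, with adjusted p up to 0.0987 and 0.101. The lowest values over the 9 fits were 0.0174 for Gzma and 0.00816 for Ccl5. In a fit of these 2 genotypes alone Ccl5 missed the threshold (adjusted p = 0.0524).

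Foxa2+/- against wild type gave no call among the 8 genes by limma, where 6.11% of all tested genes were called. At an unadjusted p under 0.05 there were 4 of the 8, where 19.2% of all tested genes had one, and all 4 were lower in Foxa2+/-: Cd3g by -1.14 (adjusted p = 0.0874), Trbc2 by -0.90 (adjusted p = 0.109), Lck by -0.57 (adjusted p = 0.155) and Gzma by -1.46 (adjusted p = 0.115). All 4 Foxa2+/- libraries lay below the wild-type mean for each of these genes. Trbc2 was the one gene of the 8 whose Foxa2+/- and wild-type libraries did not overlap (exact permutation p = 0.0159, the smallest possible), against 11.4% of all tested genes. The median of the 8 differences was -0.53, against 0.04 over all tested genes. Cd3g and Trbc2 came under the threshold in a fit of the 2 genotypes alone (adjusted p = 0.0479 and 0.0498) and with library quality weights (0.0115 and 0.0412). Gzma passed without wild-type replicate 1 (-1.86, adjusted p = 0.0294, over the 9 such fits 0.0294 to 0.275).

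Falcor-/- against wild type called none of the 8 genes by limma (1 at an unadjusted p under 0.05, Cxcl13), where 9.47% of all tested genes were called and 33.5% had an unadjusted p under 0.05. The T cell and cytotoxic genes all lay on the higher side without passing: Cd3e 0.44, Cd3g 0.61, Trbc2 0.59, Lck 0.31, Gzma 0.30 and Ccl5 0.40. Their 95% intervals all include 0, and the widest, of Gzma, ran from -0.73 to 1.33. Without Falcor-/- replicate 7, Cd3g passed (0.90, adjusted p = 0.0491, over the 10 such fits 0.0491 to 0.433). Without wild-type replicate 1 the Gzma difference turned to -0.10.

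In Double-Het against wild type the same 6 genes had differences between -0.12 (Ccl5) and 0.51 (Trbc2), none of them called. The interval of Lck was -0.46 to 0.47 and that of Cd3g -0.67 to 0.91, so changes of about that size remain possible. The signs of Cd3g, Lck, Gzma and Ccl5 changed with the library left out, the centring or the weights, and no direction is read from them. Against Foxa2+/-, Double-Het had 2 of the 8 genes called, Trbc2 higher by 1.42 (SE 0.33, adjusted p = 0.0337) and Cxcl13 lower, where 2.43% of all tested genes were called, 1.06% higher and 1.37% lower. Of the 8 fits that left out 1 library, the Trbc2 call held only in the fit without Double-Het replicate 18 (adjusted p = 0.0437) and was lost in the other 7 (0.0537 to 0.112). Library quality weights also brought Cd3g (1.56, adjusted p = 0.0114) and Lck (0.62, adjusted p = 0.0493) under the threshold there. The comparison of Double-Het with Falcor-/- called none of the 8 by limma (1 at an unadjusted p under 0.05, Cxcl13), where 5.15% of all tested genes were called and 21.2% had an unadjusted p under 0.05. All 8 differences lay on the lower side with a median of -0.32.

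**Figure D3:**
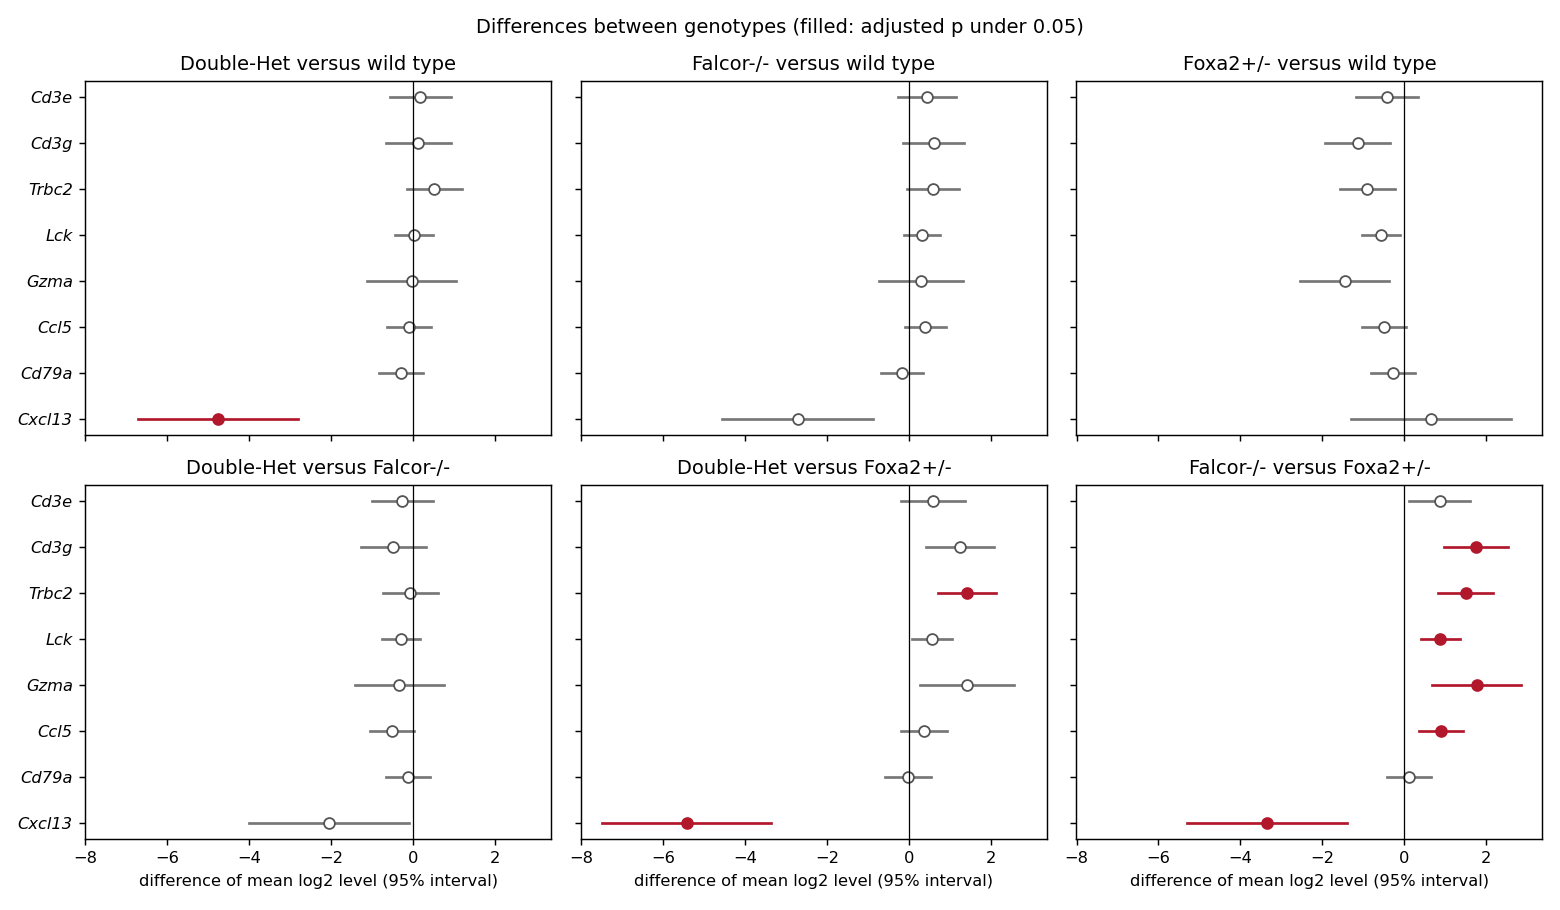
Difference of mean log2 levels (x axis) for each of the 8 genes (y axis) in the 6 comparisons between genotypes, first-named minus second-named, with the 95% interval from limma; filled points have an adjusted p under 0.05. Cxcl13 is filled in 3 comparisons, and 5 T cell and cytotoxic genes are filled in Falcor-/- versus Foxa2+/-.

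The 4 T cell genes varied together across libraries, and the cytotoxic genes followed them less closely or not at all once genotype was set aside. Falcor-/- replicate 9 was the highest of the 18 libraries in 3 of the 6 genes and among the 3 highest in 5 of them. Each Foxa2+/- library had a median rank of 16 or 16.5 over the 6 genes, counted from the highest. Over the 18 libraries Cd3g and Trbc2 correlated with r = 0.854, Trbc2 and Lck with 0.838 and Cd3e and Lck with 0.762. With genotype means subtracted these were 0.675, 0.698 and 0.652, and the 6 pairs among the T cell genes ran from 0.501 to 0.698. Gzma with the T cell genes then ran from 0.0926 (Cd3e) to 0.481 (Lck). Ccl5 ran from -0.165 (Cd3e) to 0.078 (Cd3g), and Gzma with Ccl5 had 0.357. All of these describe libraries that share their scaling. Single libraries differed likewise: Double-Het replicate 17 ranked 18 of the 18 for Ccl5 but 4 to 10 for the other 5 genes, and Falcor-/- replicate 6 ranked 1 for Ccl5 and 2 for Gzma but 8 to 12 for the T cell genes. Cxcl13 did not follow these genes within genotypes, with r from -0.321 (Ccl5) to 0.264 (Trbc2) after the genotype means were subtracted.

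Among all named genes the closest to Trbc2 was Trbc1 (r = 0.905), followed by Prkag3 (0.870) and Cd3g (0.854). Those closest to Cd3e were Chrna1 (0.778), Lck (0.762) and Cd3g (0.739), and those closest to Cd3g were Stx6 (0.881), Trbc2 and Gimap9 (0.846). For Lck they were Ppp3ca (0.895), Fam174b (0.887) and Zcrb1 (0.852), for Gzma Cdc42 (0.853), Phf11b (0.841) and Brd9 (0.830), and for Ccl5 Arpc5 (0.898), Fam118b (0.877) and Gyg (0.867). With 18 libraries and 13730 genes ranked, values of this size carry no test.

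Of the 20 other T cell markers tested, 2 fell in Double-Het, 1 rose and 1 fell in Falcor-/-, and 4 fell in Foxa2+/-. Of all tested genes 7.57% fell in Double-Het, 5.23% rose and 4.24% fell in Falcor-/-, and 4.15% fell in Foxa2+/-. The calls in Double-Het and in Falcor-/- are therefore near the share of all genes. The 4 in Foxa2+/- were Tcf7 (-1.12, adjusted p = 0.00235) and Lef1 (-1.80, adjusted p = 0.00491), transcription factors of naive and memory T cells, Cd247 (-1.22, adjusted p = 0.034), the zeta chain of the receptor, and Trbc1 (-1.12, adjusted p = 0.0401). In Double-Het the coreceptor gene Cd4 (-0.90, adjusted p = 0.00653) and Tcf7 (-0.83, adjusted p = 0.0116) fell. In Falcor-/- the adaptor gene Skap1 rose (0.97, adjusted p = 0.0271) and Cd4 fell (-0.70, adjusted p = 0.0345). The median over the 20 genes was -0.08 in Double-Het, 0.17 in Falcor-/- and -0.21 in Foxa2+/-, while over all tested genes it was 0.07 in Double-Het, 0.03 in Falcor-/- and 0.04 in Foxa2+/-.

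Cd3d, which did not pass the filter and has no limma test, averaged 6.22 ± 0.45 (SD, n = 4) in Double-Het, 6.59 ± 0.63 (n = 5) in Falcor-/-, 4.86 ± 0.32 (n = 4) in Foxa2+/- and 6.01 ± 0.43 (n = 5) in wild type. Its Foxa2+/- libraries lay below all others, with only 4 to 9 distinct lower values beneath them. Among all tested genes 11.4% did not overlap between Foxa2+/- and wild type. The share was 12.3% for Falcor-/- against Foxa2+/- and 11.9% for Double-Het against Foxa2+/-. Trac averaged 6.35 ± 0.62 in Double-Het, 6.56 ± 0.63 in Falcor-/-, 5.15 ± 0.56 in Foxa2+/- and 5.69 ± 0.53 in wild type, and its Foxa2+/- and wild-type libraries overlapped.

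Of the 9 other NK and cytotoxic genes, 2 rose in Double-Het, 1 rose in Falcor-/- and none was called in Foxa2+/- by limma, where none had an unadjusted p under 0.05 either. Of all tested genes 7.21% rose in Double-Het and 5.23% rose in Falcor-/-. The NK receptor gene Klrk1 was 0.81 higher in Double-Het (adjusted p = 0.0169) and 1.08 higher in Falcor-/- (adjusted p = 0.00815). Klrd1, which encodes the CD94 chain of NK receptors, was 1.16 higher in Double-Het (adjusted p = 0.0397). Only 11 of the 24 genes of this list, Gzma and Ccl5 included, were matched in the deposited values. The rest, among them Gzmb, Prf1, Nkg7 and Ncr1, had no match and could not be analysed.

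**Figure D4:**
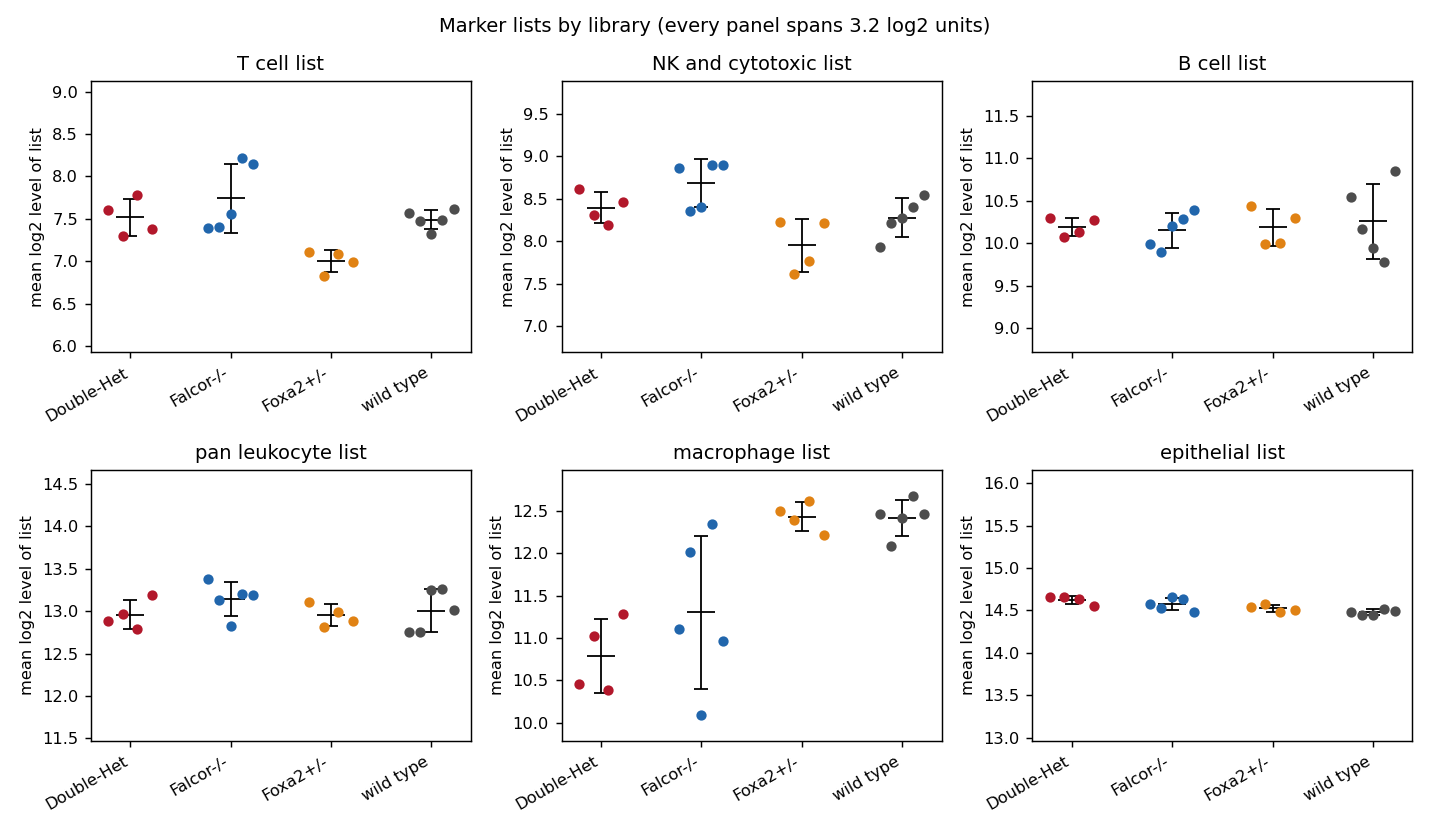
Mean log2 level of 6 marker lists (y axis) in each library, grouped by genotype on the x axis; points are libraries, long bars the mean and whiskers 1 SD, and every panel spans the same number of log2 units. The T cell list, which includes Cd3e, Cd3g, Trbc2 and Lck, is lowest in Foxa2+/- (6.83 to 7.11). The NK and cytotoxic list includes Gzma and Ccl5, and the B cell list includes Cd79a. The macrophage list is 10.38 to 11.29 in Double-Het, below every Foxa2+/- and wild-type library. The B cell list overlaps between all 4 genotypes.

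Markers of leukocytes as a whole overlapped between all 4 genotypes. The mean level of 18 pan leukocyte markers was 12.79 to 13.19 in Double-Het, 12.82 to 13.38 in Falcor-/-, 12.81 to 13.11 in Foxa2+/- and 12.75 to 13.26 in wild type. The log2 of their summed level was 17.36 to 17.77 in Double-Het, 17.38 to 17.99 in Falcor-/-, 17.37 to 17.63 in Foxa2+/- and 17.32 to 17.83 in wild type. One of the 18 rose in Falcor-/-, Cd52, a surface glycoprotein of lymphocytes and other leukocytes (0.56, adjusted p = 0.0442), where 5.23% of all tested genes rose. That single call is near the share of all genes. None was called in Double-Het or Foxa2+/- by limma, and none had an unadjusted p under 0.05 there. The T cell list holds 26 measured genes, among them Cd3e, Cd3g, Trbc2 and Lck, so it is not independent of them. Its 20 other tested members had a median difference of -0.21 between Foxa2+/- and wild type. The mean T cell list level was 7.30 to 7.78 in Double-Het, 7.39 to 8.22 in Falcor-/-, 6.83 to 7.11 in Foxa2+/- and 7.32 to 7.61 in wild type. The log2 of its summed level was 12.76 to 12.95 in Double-Het, 12.57 to 13.32 in Falcor-/-, 12.58 to 12.69 in Foxa2+/- and 12.75 to 13.00 in wild type, and its lowest marker was Trac at 4.41 in Foxa2+/-. The part of T cell number in the results above was not tested.

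Cd79a (ENSMUSG00000003379), the signalling chain of the B cell receptor, was 10.71, 10.42, 10.52 and 10.58 in Double-Het and 10.57, 10.02, 11.05, 10.85 and 10.97 in Falcor-/-. It was 10.68, 10.41, 10.44 and 10.79 in Foxa2+/- and 11.35, 10.85, 10.42, 10.12 and 11.59 in wild type. All genotypes overlapped, and wild type held both of the 2 highest libraries. The differences from wild type were -0.31 in Double-Het (95% interval -0.85 to 0.23, adjusted p = 0.435), -0.17 in Falcor-/- (-0.68 to 0.33, adjusted p = 0.63) and -0.28 in Foxa2+/- (-0.82 to 0.25, adjusted p = 0.62). Genotype accounted for 10.4% of the variance of Cd79a over the 18 libraries, against a median of 37.2% over all tested genes.

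The named genes closest to Cd79a over the 18 libraries were Pax5, the B lineage transcription factor (r = 0.886), Ms4a1, which encodes CD20 (0.868), and the B cell kinase gene Blk (0.837), and after genotype means were subtracted the values were 0.901, 0.868 and 0.828. Its partner chain Cd79b averaged 11.03 ± 0.20 (SD, n = 4) in Double-Het, 11.08 ± 0.31 (n = 5) in Falcor-/-, 10.96 ± 0.14 (n = 4) in Foxa2+/- and 10.92 ± 0.50 (n = 5) in wild type. Of the 25 other B cell markers, 1 rose in Double-Het, Vpreb3 (0.63, adjusted p = 0.0494), where 7.21% of all tested genes rose. None was called in Falcor-/- by limma (3 at an unadjusted p under 0.05, where 33.5% of all tested genes had one) or in Foxa2+/- (none at that level). In Falcor-/- the 2 with the smallest p were Vpreb3 (0.62, adjusted p = 0.0513) and the adaptor gene Bank1 (-0.79, adjusted p = 0.0724). In Foxa2+/- the smallest p was that of Iglc2 (0.85, adjusted p = 0.272).

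The 8 genes differed widely in how much libraries of 1 genotype varied. The SD within genotypes was 1.52 for Cxcl13, above that of 99.4% of all tested genes, and 0.82 for Gzma, above 96.7%. It was 0.33 for Lck, the smallest of the 8, and the median of all tested genes was 0.21. Among genes with a mean level within 0.5 of its own, Cxcl13 still exceeded 97.3%, Cd79a 90.2%, Gzma 88.3% and Ccl5 82.0%, whereas Lck exceeded 38.6%. Genotype accounted for 71.2% of the variance of Cxcl13, 64.7% of that of Trbc2 and 60.4% of that of Cd3g.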

How the data were processed

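RNA of EpCAM+ lung cells was measured in 18 libraries. The deposited values are log2 expression levels. STAR, limma and the genome build mm9 are named in the submitters' processing notes; for the read counter, annotation, strand setting and versions the entry is "not given in the sources used here". Library medians of 11.03 and near-equal distributions show that the authors scaled the libraries to a common distribution, so a change shared by most genes is not visible and depth is unknown. Symbols were matched by Ensembl identifier for 14994 of 15544 genes.

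Genes with a mean of at least 6 were fitted with limma 3.58.1 in R 4.3.3 (1 mean per genotype, empirical Bayes with a trend on level; degrees of freedom 14 residual and 17.0 with the prior). The 6 contrasts (2-sided) and the F test were adjusted by Benjamini-Hochberg over 15249 genes, and the fit was tested on simulated data. Exact permutation tests used scipy 1.17.1 in Python 3.11.15. Comparisons share libraries. The 8 genes and all marker lists were chosen with earlier results of these data known. Named beside the 8 genes are up to 3 called members of each list with the smallest p (the 2 smallest where none was called), receptor partners, and the 3 genes most correlated with each. Some genes that this rule names are not reported here. Alternatives changed the filter, the variance prior, library weights, the libraries fitted and the centring.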

Additional observations from a re-analysis of the deposited data

Results flagged for a closer look

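Of 32 groups of 4 or 5 libraries (8 genes in 4 genotypes), 1 held a library far from the others of its genotype. Gzma was 5.324 in Double-Het replicate 16, against 6.537 to 6.596 in the other 3 Double-Het libraries. Chance marks about 1 in 20 such groups. Without that library the Gzma difference of Double-Het from wild type was 0.27, against -0.04 with it, and neither passed the threshold.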

How the results depend on the processing

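Of 300 values of the 8 genes under other settings, 285 kept their direction and their side of the threshold, 2 lost a call, 8 gained one and 5 turned sign. Leaving out 1 library did the same for 384 of 432, with 25 calls lost, 5 gained and 18 signs turned. A filter at a mean of 8 leaves only Ccl5 and Cd79a in the test. It gave 0 called genes of the 8 for Double-Het versus Foxa2+/-, Double-Het versus wild type and the F test, and 1 for Falcor-/- versus Foxa2+/-. Library quality weights gave 4 for Double-Het versus Foxa2+/-, 1 for Falcor-/- versus wild type and 2 for Foxa2+/- versus wild type. Epithelial centring gave 1 for Falcor-/- versus wild type, and the fit of 2 genotypes gave 2 for Foxa2+/- versus wild type.

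Among all tested genes, weights gave 2125 calls (370 as reported) for Double-Het versus Foxa2+/-, 4939 (2254) for Double-Het versus wild type, 4757 (2540) for Falcor-/- versus Foxa2+/-, 3446 (1444) for Falcor-/- versus wild type, 1947 (932) for Foxa2+/- versus wild type and 7248 (3534) for the F test. Fits of 2 genotypes gave 342 (785) for Double-Het versus Falcor-/-, 1181 for Falcor-/- versus Foxa2+/- and 483 for Falcor-/- versus wild type. The cause was not tested.

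Without 1 library the number called of the 8 was 0 to 0 for Double-Het versus Falcor-/-, 1 to 2 for Double-Het versus Foxa2+/-, 1 to 1 for Double-Het versus wild type, 2 to 7 for Falcor-/- versus Foxa2+/-, 0 to 2 for Falcor-/- versus wild type, 0 to 1 for Foxa2+/- versus wild type and 2 to 6 for the F test. Over all genes the ranges were, in that order, 412 to 1233, 90 to 381, 1342 to 2435, 764 to 4742, 354 to 3926, 556 to 1118 and 2375 to 5710, with the highest for Falcor-/- without its replicate 7 and the lowest for Foxa2+/- versus wild type and for the F test without Foxa2+/- replicate 13.

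Signs turned under weights for Ccl5 (0.026) and Gzma (0.11) in Double-Het versus wild type and for Cd79a in Double-Het versus Foxa2+/- (0.0050), and under epithelial centring, which shifts Double-Het against wild type by -0.15, for Cd3g (-0.030) and Lck (-0.14). Leaving out 1 library gave ranges across 0 in Double-Het versus wild type for Ccl5 (-0.26 to 0.17), Cd3g (-0.082 to 0.34), Gzma (-0.44 to 0.35) and Lck (-0.10 to 0.12), in Falcor-/- versus wild type for Cd79a (-0.36 to 0.0091) and Gzma (-0.10 to 0.69), in Double-Het versus Foxa2+/- for Cd79a (-0.081 to 0.046) and in Double-Het versus Falcor-/- for Trbc2 (-0.25 to 0.19). None of these was called. No paired analysis was possible because the genotypes share no replicate numbers.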
